A study of Mus musculus with 12 samples.

Results

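The 10 genes described here encode transcription factors of the paraxial mesoderm, the tissue beside the neural tube that segments into somites and gives rise to vertebrae, skeletal muscle and dermis. They are Tbx6, Msgn1, Meox1, Meox2, Foxc1, Foxc2, Tcf15, Pax3, Hes7 and Uncx, chosen by symbol out of 19938 genes measured by a probe set with 1 symbol. Each member had 1 such probe set, so no choice between probe sets was needed. The data are 12 Affymetrix arrays of mouse cells derived from induced pluripotent stem cells (iPSCs, reprogrammed cells that can form all germ layers), with 3 arrays in each of 4 groups. Cardiac progenitor cells (CPCs) were taken at day 4 after flow sorting for surface FLK1, the product of Kdr, and PDGFRα. Cells of an optimized cardiac differentiation and spontaneously differentiating cells were also taken at day 4, and undifferentiated iPSCs at day 0 were the control. The labels describe the cardiac cultures only as "EB + ck", and name no strain, clone or further agent. They do not say that replicates were separate cultures, so p-values measure only how the 3 arrays within each group varied, a spread that may be technical. This spread is pooled over all 4 groups. Groups that vary more thus also enter the p-values of comparisons between the others. In such bulk RNA, fewer cells of a type and less RNA per cell cannot be told apart.

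Paraxial mesoderm arises from the primitive streak under WNT and FGF signals. Tbx6 and Msgn1 mark its unsegmented, presomitic part and direct cells away from other fates; Hes7 is an oscillating repressor of the segmentation clock there. Tcf15 (paraxis), Meox1 and Meox2 act in the formed somite, Foxc1 and Foxc2 in presomitic and somitic mesoderm as well as in vessels and heart, Uncx in the posterior part of each somite, and Pax3 in the dermomyotome, neural tube and neural crest. Cardiac mesoderm leaves the streak earlier and lies lateral to this tissue. Each day 4 group was compared with day 0, and the day 4 groups with each other.

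Values are log2 signals after RMA, the authors' normalization, and an adjusted p comes from limma with Benjamini-Hochberg adjustment over all 19938 genes. A gene was called if its adjusted p was below 0.05 and its log2 difference was at least 1 in size. Array medians ran from 6.09 to 6.26. Meox1, Meox2 and Pax3 lay below the median of their array on 12 of 12 arrays, Foxc1 on 10, Foxc2 on 6 and Uncx on 5. No background level was used here, so such signals are not shown to exceed it, and differences of dim probe sets may be understated.

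Some libraries differed from the others of their group in Kdr RNA. Kdr, which encodes the FLK1 used in the sort, measured 10.23, 6.25 and 6.03 in sorted CPC replicates 1, 2 and 3, and 5.42, 10.81 and 9.01 in cardiac replicates 1, 2 and 3. The cardiac label makes no statement about Kdr, and the sort was for surface protein, not RNA. At day 0 Kdr measured 5.50, 5.54 and 5.78. Spontaneous cells exceeded day 0 in Kdr by 4.66 on the log2 scale, a call lost under 7 of 25 alternative fits. The libraries labelled sorted CPC replicates 2 and 3 and cardiac replicate 1 were thus near day 0 in Kdr RNA. Whether samples or labels were exchanged was not tested, and an exchange would change what the sorted and cardiac means stand for. Pdgfra measured 11.13, 8.47 and 8.29 in the sorted libraries and 8.75, 9.14 and 8.81 at day 0. The pluripotency genes Pou5f1 and Nanog measured at least 11.24 and 11.23 on every day 0 array. Within groups the lowest correlation between arrays was 0.966 for sorted CPCs, 0.973 for cardiac cultures, 0.992 for spontaneous cells and 0.989 at day 0. Values without some or all of the libraries low in Kdr are also given, for the called members, Tbx6 and Foxc1, and the counts of some gene lists. These libraries were left out by their own signals, so values without them are no independent support. As the fit pools the spread of all groups, leaving them out also changes p-values and counts in comparisons that lost no array.

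Of the 10 factors, Tcf15 alone was called against day 0, where it fell in all 3 day 4 groups. The other 9 were not called in any of the 6 comparisons. The members' median log2 difference from day 0 was 0.03 in sorted CPCs, -0.09 in cardiac cultures and -0.07 in spontaneous cells, beside 0.03, -0.05 and -0.03 over all genes. The share of all genes called was 2.11% (sorted CPCs), 2.2% (cardiac) and 3.57% (spontaneous), against 1 of 10 members each time, which rests on a single gene. In a moderated F test across the 4 groups, 1 of 10 members passed, again Tcf15, beside 5.86% of all genes. Over the 12 arrays, 7 members moved by less than 1 log2 unit from their lowest to their highest array, and the exceptions were Tbx6, Foxc1 and Tcf15.

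**Figure D1:**
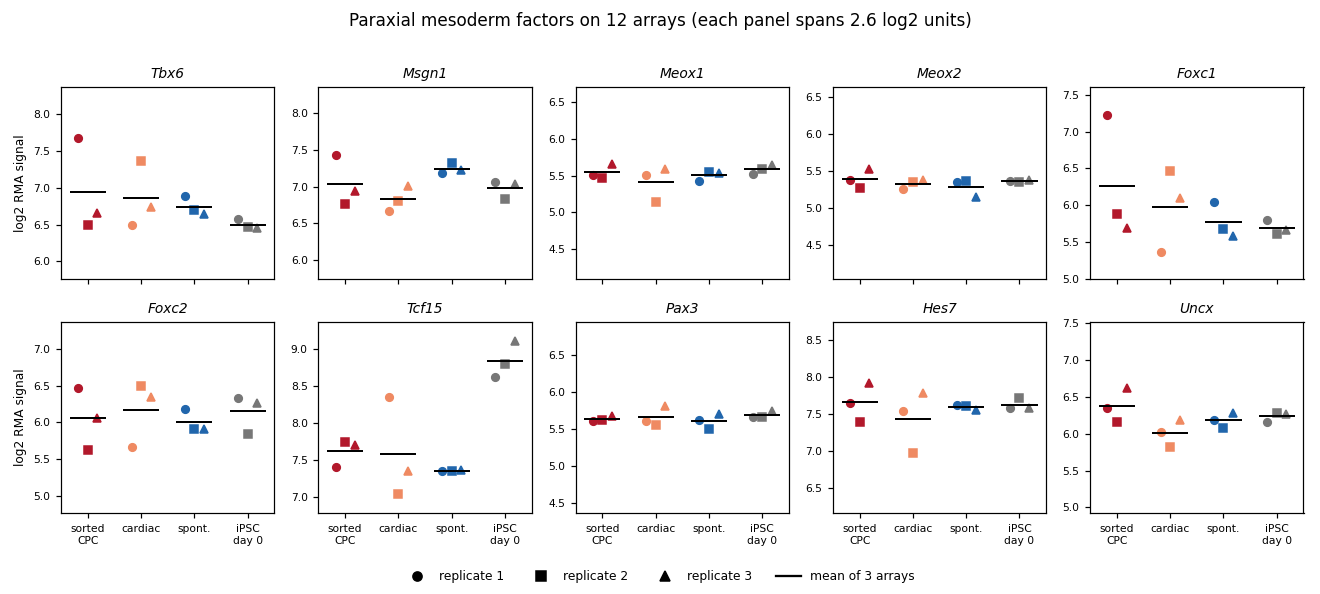
Log2 RMA signal of each factor on the 12 arrays, by group, with 1 symbol per replicate and a bar at the mean of 3 arrays; every panel spans the same height. Tcf15 is highest on the day 0 arrays, Tbx6 and Foxc1 are highest in sorted CPC replicate 1, and Meox2 and Pax3 are nearly level.

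Tbx6, the T-box factor that specifies presomitic mesoderm, measured 7.68, 6.49 and 6.65 in sorted CPC replicates 1, 2 and 3, and 6.49, 7.36 and 6.74 in cardiac replicates 1, 2 and 3. Spontaneous arrays read 6.89, 6.70 and 6.65, against 6.58, 6.47 and 6.45 at day 0. Sorted CPC replicate 1 and cardiac replicate 2 were the high arrays, and the sorted and cardiac groups overlapped day 0. All spontaneous arrays lay above all day 0 arrays, as did those of 19.4% of all genes. The SD was 0.64 in sorted CPCs, 0.45 in cardiac cultures, 0.13 in spontaneous cells and 0.07 at day 0, and the fit pools these. Over 25 alternatives the adjusted p of spontaneous cells against day 0 ran from 0.0986 to 0.823. The group order was sorted CPCs, cardiac, spontaneous and day 0, with no pair of neighbours called. The log2 difference from day 0 was 0.44 ± 0.27 (SE) in sorted CPCs (95% interval -0.15 to 1.03, adjusted p = 0.426), 0.37 in cardiac cultures (adjusted p = 0.435) and 0.24 in spontaneous cells (adjusted p = 0.642). Sorted CPC replicate 1 carried the first of these, which was 0.08 without it (adjusted p = 0.941). Without sorted CPC replicates 2 and 3, whose Kdr was low, it was 1.18 (adjusted p = 0.0246); that fit assumes that a single array varies like the other groups.

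Msgn1, a basic helix-loop-helix factor of presomitic mesoderm that acts with Tbx6, had its highest value, 7.42, in sorted CPC replicate 1, while replicates 2 and 3 measured 6.76 and 6.94. Cardiac cultures measured 6.67, 6.81 and 7.01 and spontaneous cells 7.18, 7.32 and 7.22, against 7.06, 6.83 and 7.04 at day 0. All spontaneous arrays were above all day 0 arrays and above all cardiac arrays, by small amounts. The difference from day 0 in spontaneous cells was 0.27 ± 0.17 (SE, 95% interval -0.09 to 0.63, adjusted p = 0.361), an interval that ends below a log2 change of 1. Its adjusted p ran from 0.04 to 0.646 over 25 alternatives, and it was called under none of them. The SD was 0.07 in spontaneous cells and 0.12 at day 0, but 0.34 in sorted CPCs, which the pooled spread includes. Between cardiac and spontaneous cells the difference was -0.41 (95% interval -0.77 to -0.06, unadjusted p = 0.0262, adjusted p = 0.999). Arrays of 3.77% of all genes lay wholly lower in that comparison.

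Hes7, the clock repressor, measured 7.65, 7.40 and 7.92 in sorted CPCs, 7.54, 6.97 and 7.79 in cardiac cultures and 7.63, 7.61 and 7.55 in spontaneous cells, against 7.59, 7.72 and 7.58 at day 0. The groups overlapped throughout, and the differences from day 0 ran from -0.19 (cardiac, 95% interval -0.61 to 0.22) to 0.03 (sorted CPCs, -0.38 to 0.45).

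The proximal promoters of Msgn1, Tbx6, Hes7 and Foxc1 are shown because the first 3 factors act in presomitic tissue under WNT and Notch control, and Foxc1 followed Tbx6 across the arrays. RefSeq promoters (GRCm38.p6) were given for 6 of the 10 members: Foxc1, Hes7, Meox2, Msgn1, Tbx6 and Uncx. Each line is the 250 bases before the annotated start, 5′ to 3′ on the gene's strand, with matches to 3 motifs on either strand in capitals. The motifs were the core of the TCF/LEF site that carries WNT responses (CTTTGA or CTTTGT), the T-box core GGTGTGA, and the N-box CACNAG, which Hes-type repressors bind. No 2 matches overlapped.
Msgn1, chr12:11208949-11209198, minus strand: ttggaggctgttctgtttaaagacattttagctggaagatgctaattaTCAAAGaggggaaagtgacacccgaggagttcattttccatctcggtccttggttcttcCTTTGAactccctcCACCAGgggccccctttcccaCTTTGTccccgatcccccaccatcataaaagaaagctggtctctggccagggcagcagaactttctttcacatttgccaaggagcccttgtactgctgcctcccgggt
Tbx6, chr7:126781233-126781482, plus strand: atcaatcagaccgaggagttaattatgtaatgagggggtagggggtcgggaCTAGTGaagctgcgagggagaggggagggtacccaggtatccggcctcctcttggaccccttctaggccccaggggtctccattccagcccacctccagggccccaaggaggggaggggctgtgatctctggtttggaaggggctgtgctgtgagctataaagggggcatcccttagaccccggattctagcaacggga
Hes7, chr11:69120203-69120452, plus strand: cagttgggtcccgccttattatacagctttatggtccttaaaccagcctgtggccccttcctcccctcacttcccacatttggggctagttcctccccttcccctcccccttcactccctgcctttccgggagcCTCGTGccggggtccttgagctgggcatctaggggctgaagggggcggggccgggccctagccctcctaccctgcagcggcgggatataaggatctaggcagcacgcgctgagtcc
Foxc1, chr13:31806396-31806645, plus strand: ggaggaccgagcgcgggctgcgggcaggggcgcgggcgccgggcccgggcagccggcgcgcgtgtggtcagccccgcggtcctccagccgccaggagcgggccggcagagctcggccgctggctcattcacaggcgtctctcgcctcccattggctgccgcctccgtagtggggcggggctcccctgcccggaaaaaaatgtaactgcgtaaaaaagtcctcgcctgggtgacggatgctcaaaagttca
The Msgn1 window held 3 TCF/LEF cores, starting 202, 143 and 108 bases before the start, and 0 were found in the other 5 windows. Of 32851 mouse promoter windows of this length, 27.6% held at least 1 such core and 0.776% held 3 or more. The T-box core matched 0 of the 6 windows and 3.33% of all windows. The Hes7 window held 1 N-box, 116 bases before the start, and the Tbx6, Msgn1 and Meox2 windows also held 1 each, as 36.7% of all windows held at least 1. These are letter matches, not measured binding sites.

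Foxc1, a forkhead factor of somitic, vascular and cardiac mesoderm, spread most among the uncalled members. It measured 7.23, 5.87 and 5.68 in sorted CPC replicates 1, 2 and 3 and 5.37, 6.46 and 6.10 in cardiac replicates 1, 2 and 3. Spontaneous cells measured 6.04, 5.68 and 5.58, against 5.79, 5.60 and 5.67 at day 0. As with Tbx6, sorted CPC replicate 1 and cardiac replicate 2 were the highest arrays, and every day 4 group overlapped day 0. The differences from day 0 were 0.57 ± 0.35 (SE, adjusted p = 0.411) in sorted CPCs, 0.29 (adjusted p = 0.629) in cardiac cultures and 0.08 (adjusted p = 0.92) in spontaneous cells. Without sorted CPC replicate 1 the first was 0.09 (adjusted p = 0.94), and without sorted CPC replicates 2 and 3 it was 1.54 (adjusted p = 0.0177). Foxc2, its close relative, measured 6.47, 5.63 and 6.07 in sorted CPCs, 5.66, 6.50 and 6.35 in cardiac cultures and 6.18, 5.91 and 5.91 in spontaneous cells, against 6.34, 5.84 and 6.27 at day 0. Its groups overlapped throughout, and its largest difference from day 0 was -0.15 in spontaneous cells (95% interval -0.66 to 0.36).

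Tbx6 and Foxc1 followed each other across the 12 arrays (Pearson r = 0.936, Spearman rho = 0.783), a description over arrays that share groups and 1 high library. By a search added after their values were seen, the genes most like Tbx6 among 1053 whose group means spanned at least 1 were Snai1, Wnt2b, Slc4a4 and Itga8 (r = 0.919, 0.916, 0.896 and 0.89; rho between 0.818 and 0.944). For Foxc1 they were Itga8, Dll3, Sp5 and Snai1 (r = 0.885, 0.88, 0.86 and 0.84; rho between 0.706 and 0.874). Snai1 drives epithelial to mesenchymal transition, Dll3 is a Notch pathway ligand of presomitic mesoderm, and Sp5 is a direct WNT target gene. Dll3 measured 9.77, 7.69 and 6.72 in sorted CPCs and 6.32, 8.71 and 8.03 in cardiac cultures, against 6.45, 6.41 and 6.32 at day 0. It was not called, with differences of 1.67 (adjusted p = 0.184) in sorted CPCs and 1.29 (adjusted p = 0.265) in cardiac cultures.

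**Figure D2:**
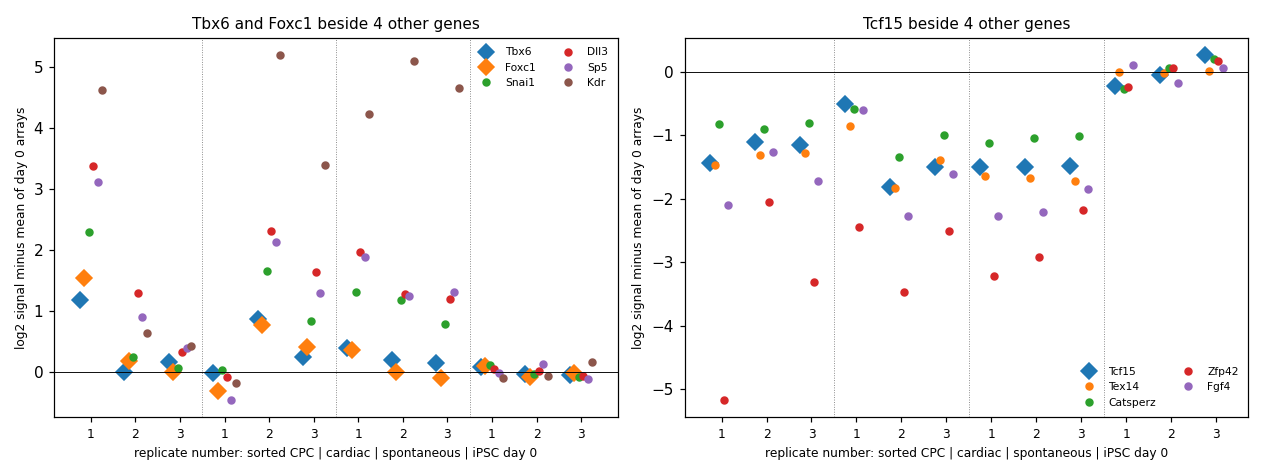
Log2 signal minus the mean of the 3 day 0 arrays on each array, with diamonds for members and circles for other genes. On the left, Tbx6 and Foxc1 are highest in sorted CPC replicate 1, where Dll3 measured 9.77, and at or below 0 in cardiac replicate 1; on the right, Tcf15 lies below its day 0 mean on all 9 day 4 arrays, least in cardiac replicate 1.

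Tcf15, a basic helix-loop-helix factor needed for somites to become epithelial, is also known in mouse pluripotent cells, where FGF signalling induces it in cells primed to differentiate. It measured 7.41, 7.74 and 7.70 in sorted CPC replicates 1, 2 and 3, 8.35, 7.03 and 7.35 in cardiac replicates 1, 2 and 3, and 7.35, 7.34 and 7.36 in spontaneous cells, against 8.62, 8.81 and 9.11 at day 0. All 9 day 4 arrays lay below all day 0 arrays, with cardiac replicate 1 closest; all arrays were lower in this way for 11.3% of genes in sorted CPCs, 16.2% in cardiac cultures and 21.6% in spontaneous cells. Tcf15 fell in spontaneous cells by 1.50 on the log2 scale (± 0.26 SE, 2.82-fold lower, adjusted p = 0.00449), in a direction in which 1.57% of all genes were called. It fell in cardiac cultures by 1.27 (2.42-fold lower, adjusted p = 0.0143; 0.943% of genes called lower) and in sorted CPCs by 1.23 (2.35-fold lower, adjusted p = 0.0169; 1.32% called lower). These comparisons share the day 0 arrays. The spontaneous call held with each single array left out; the sorted call was lost without sorted CPC replicate 1 or iPSC replicate 2 or 3, and the cardiac call without cardiac replicate 2 or 3 or iPSC replicate 3 (adjusted p between 0.055 and 0.0687). Without cardiac replicate 1 and sorted CPC replicates 2 and 3, Tcf15 was lower by 1.66 in cardiac cultures and by 1.44 in sorted CPC replicate 1 alone. The SE of the latter was 0.21 in that fit. With cardiac replicate 1 kept, the SE was 0.38 at the same difference.

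Among day 4 groups Tcf15 followed the order sorted CPCs, cardiac and spontaneous, with no neighbours called. Sorted CPCs exceeded spontaneous cells on every array, but the difference was 0.27 (95% interval -0.30 to 0.84, adjusted p = 0.65), and arrays of 9.44% of all genes did the same. By the rule for likeness, the genes closest to Tcf15 among 1052 were Catsperz, Tex14, Fam178b and Urah, with Pearson r from 0.966 to 0.973 and Spearman rho from 0.93 to 0.972 over the 12 arrays, which fall into a day 0 and a day 4 level. Tex14, a germ cell gene, measured 7.26, 7.25 and 7.28 at day 0 and no more than 6.41 on any day 4 array. Of 14 pluripotency genes, 9 fell in sorted CPCs, 9 in cardiac cultures and 10 in spontaneous cells, and 0 rose in each group, with medians of -2.28, -2.04 and -2.14. With 1 array left out in turn, from 8 to 10, from 4 to 10 (4 without cardiac replicate 2 or iPSC replicate 2) and from 7 to 13 fell. Without cardiac replicate 1 and sorted CPC replicates 2 and 3, 12 fell in sorted CPC replicate 1 and 12 in cardiac cultures. The mean signal of this list ran from 7.08 to 9.01 in sorted CPCs, from 8.07 to 8.94 in cardiac cultures and from 8.08 to 8.65 in spontaneous cells, against 10.15 to 10.47 at day 0. The largest falls included Zfp42 (Rex1), a marker of naive pluripotency (-3.52, -2.81 and -2.77; adjusted p = 0.00398, 0.0134 and 0.0103), and Nr0b1, a nuclear receptor of stem cells (-3.98, -2.92 and -2.80; adjusted p = 0.0109, 0.0449 and 0.0395). The Nr0b1 call was lost in cardiac cultures under 12 of 25 alternatives (adjusted p up to 0.179) and in spontaneous cells under 9 (up to 0.139), both including the replicate block and each iPSC array left out. The cardiac Zfp42 call was lost under 2 alternatives. Without sorted CPC replicates 2 and 3 the sorted differences were -5.17 for Zfp42 and -5.49 for Nr0b1 (adjusted p = 0.000256 and 0.00121). Fgf4, an FGF ligand of pluripotent cells, fell by 1.69, 1.50 and 2.11 in these groups (adjusted p = 0.0103, 0.0196 and 0.00233), the cardiac call being lost under 5 of 25 alternatives. The part of pluripotent cells in the Tcf15 difference was not tested.

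**Figure D3:**
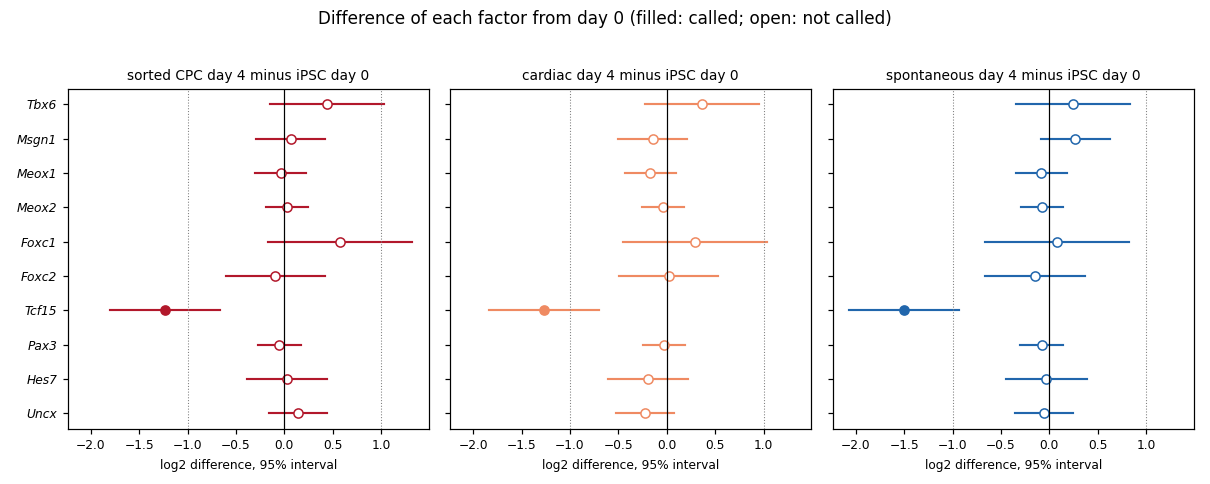
Log2 difference of each factor from day 0 in the 3 day 4 groups, with the 95% interval of the moderated contrast; filled points were called, open points were not, and dotted lines mark a log2 difference of 1 either way. Tcf15 is the filled point in each panel, and the intervals of Tbx6 and Foxc1 in sorted CPCs reach 1.03 and 1.32.

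Meox1, Meox2 and Pax3 stayed close to their day 0 signals. Meox1, a homeobox factor of somites, measured 5.51, 5.47 and 5.66 in sorted CPCs, 5.51, 5.14 and 5.59 in cardiac cultures and 5.42, 5.55 and 5.53 in spontaneous cells, against 5.52, 5.59 and 5.64 at day 0. Cardiac replicate 2 was its low array, and the groups overlapped; its 95% intervals against day 0 lay between -0.43 and 0.22. Meox2, a homeobox factor of somites and limb muscle, varied between 5.14 and 5.53 over all arrays, with intervals against day 0 between -0.29 and 0.25. Pax3, the paired box factor of dermomyotome and neural crest, varied between 5.49 and 5.82, with intervals between -0.30 and 0.19. For these 3 genes a change of 1 log2 unit from day 0 lay outside the interval in every day 4 group, although all were dim.

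Uncx, the homeobox factor of the posterior part of the somite, measured 6.35, 6.15 and 6.62 in sorted CPCs, 6.03, 5.82 and 6.19 in cardiac cultures and 6.19, 6.07 and 6.29 in spontaneous cells, against 6.16, 6.29 and 6.26 at day 0. The sorted group was higher than the cardiac one by 0.37 ± 0.14 (SE; 95% interval 0.07 to 0.67, unadjusted p = 0.0199, adjusted p = 0.288), with overlapping arrays. Cardiac replicate 2 was the lowest of the 12 arrays for Meox1, Tcf15, Hes7 and Uncx, as it was for 25.8% of all genes. Sorted CPC replicate 3 was the highest for Meox1, Meox2, Hes7 and Uncx, as for 18.2% of all genes. Tbx6, Msgn1 and Foxc1 were highest in sorted CPC replicate 1, as were 15.7% of all genes.

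Between day 4 groups 0 of 10 members were called by limma in each of the 3 comparisons. At an unadjusted p below 0.05, 1 member passed between sorted CPCs and cardiac cultures (Uncx), 0 between sorted CPCs and spontaneous cells and 1 between cardiac and spontaneous cells (Msgn1). The share of all genes at that unadjusted threshold was not counted. By the stricter rule for calls, 0%, 0.00502% and 0% of all genes were called in these comparisons. The differences were all below 0.5 in size, and their intervals reached at most 1.24 (Foxc1, sorted CPCs against spontaneous cells).

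The signalling and segmentation genes that accompany these factors in the embryo were examined as a list of 32, with the 10 members left out. In sorted CPCs 3 rose and 0 fell (median 0.58), in cardiac cultures 3 rose and 0 fell (median 0.37), and in spontaneous cells 9 rose and 0 fell (median 0.51). Of all genes, 0.787% were called higher in sorted CPCs, 1.26% in cardiac cultures and 1.99% in spontaneous cells. Cyp26a1, which degrades retinoic acid and keeps presomitic tissue unsegmented, measured 11.35, 9.76 and 8.43 in sorted CPCs, 10.58, 10.85 and 10.60 in cardiac cultures and 10.51, 10.34 and 10.44 in spontaneous cells, against 6.18, 5.99 and 6.85 at day 0. It rose by 3.51, 4.34 and 4.09 in these groups (adjusted p = 0.00203, 0.000725 and 0.00069). Fgf8, the ligand of the posterior FGF gradient, rose by 2.01, 1.49 and 1.77 (adjusted p = 0.0082, 0.0343 and 0.0113). Its cardiac call was lost under 10 of 25 alternatives, among them the replicate block and each iPSC array left out (adjusted p up to 0.146). In sorted CPC replicate 1, without sorted CPC replicates 2 and 3, the difference was 5.02 for Cyp26a1 (adjusted p = 1.68e-05) and 2.18 for Fgf8 (adjusted p = 0.0313). Cyp26a1 and Fgf8 are also expressed in the primitive streak.

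Other members of the list were called in 1 or 2 groups. Rspo3, a secreted enhancer of WNT signalling, and Nkd1, a WNT-induced feedback inhibitor, rose in spontaneous cells by 2.67 and 1.82 (adjusted p = 0.0163 and 0.0179). These calls were lost under 5 and 4 of 25 alternatives, each with 1 array left out. Nrarp, a Notch feedback gene, rose in sorted CPCs by 1.02 (adjusted p = 0.0485) and in spontaneous cells by 1.28 (adjusted p = 0.0116). Its sorted call was lost under 15 of 25 alternatives, among them the replicate block, centred array medians and the fit without sorted CPC replicates 2 and 3 (adjusted p up to 0.153), and its spontaneous call under 2. Cer1, a secreted inhibitor of Nodal, BMP and WNT, rose in cardiac cultures by 2.31 (adjusted p = 0.0166), a call lost in 4 of 25. Leaving out cardiac replicate 1 and sorted CPC replicates 2 and 3 also changed the spread used for spontaneous cells, which lost no array. For Tcf15 in spontaneous cells the SE was 0.26 with all arrays and 0.15 without those libraries, at the same difference of -1.50. More listed genes rose in all 3 day 4 groups in this setting, not in sorted and cardiac cells alone. The differences themselves stayed the same in spontaneous cells but changed in sorted and cardiac cells. With 1 array left out in turn, the number of listed genes that rose was 2 to 7 in sorted CPCs (7 without sorted CPC replicate 3), 1 to 7 in cardiac cultures (1 without cardiac replicate 2) and 3 to 11 in spontaneous cells (3 without spontaneous replicate 2). The mean signal of this list was 8.21, 7.46 and 7.17 in sorted CPC replicates 1, 2 and 3 and 7.11, 7.96 and 7.60 in cardiac replicates 1, 2 and 3. It ran from 7.67 to 7.78 in spontaneous cells and from 6.97 to 7.05 at day 0. The arrays high in Tbx6 and Foxc1 were thus its highest too. This list holds Snai1, Dll3 and Sp5, which the search for likeness to Tbx6 and Foxc1 had returned. Sorted CPC replicate 1 and cardiac replicate 2 were also highest in the mean of the primitive streak list described below (8.79 and 8.55). Spontaneous cells reached 8.39 in that list.

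Of 20 measured genes of somite derivatives, such as sclerotome, muscle and tendon factors, 1 rose in sorted CPCs, 0 in cardiac cultures and 1 in spontaneous cells, and 0 fell, with medians of 0.02, -0.18 and -0.07. The gene that rose was Mkx, a homeobox factor of tendon (1.01 and 1.26 in sorted CPCs and spontaneous cells; adjusted p = 0.0269 and 0.00636). Its sorted call was lost under 7 of 25 alternatives (adjusted p up to 0.119), among them the fit without sorted CPC replicate 1 or 2, and without cardiac replicate 1 and sorted CPC replicates 2 and 3, where the difference was 0.95. With 1 array left out in turn, the count of somite derivatives that rose was 0 to 1 in sorted CPCs, 0 to 1 in cardiac cultures and 1 to 2 in spontaneous cells. Of 16 measured primitive streak and neuromesodermal genes, 1 rose in sorted CPCs, 2 in cardiac cultures and 6 in spontaneous cells, with medians of 0.72, 0.80 and 1.35, and 1 fell in each (Fgf4). Eomes, a T-box factor of the streak, rose by 3.70, 3.53 and 4.29 (adjusted p = 0.00658, 0.00869 and 0.00222), and by 5.05 in sorted CPC replicate 1 (adjusted p = 0.00287, without sorted CPC replicates 2 and 3). Of 18 lateral plate and cardiogenic genes, 0 rose in sorted CPCs, 3 in cardiac cultures and 7 in spontaneous cells, and 0 fell, with medians of 0.18, 0.40 and 0.92. Cardiac replicate 1 and sorted CPC replicates 2 and 3 were left out elsewhere for their low Kdr, a gene of the lateral plate list. Their streak means were 7.22, 8.01 and 7.46. The libraries kept had 8.55 and 8.12 in cardiac cultures and 8.79 in sorted CPCs. Their pluripotency means were higher than those of the libraries kept in the same group. Values of members and lists without these libraries are thus shaped by that choice and are no independent support. With 1 array left out in turn, the streak count was 1 to 5, 1 to 6 and 3 to 8, and the lateral plate count 0 to 1, 1 to 5 and 3 to 8, in sorted CPCs, cardiac cultures and spontaneous cells.

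**Figure D4:**
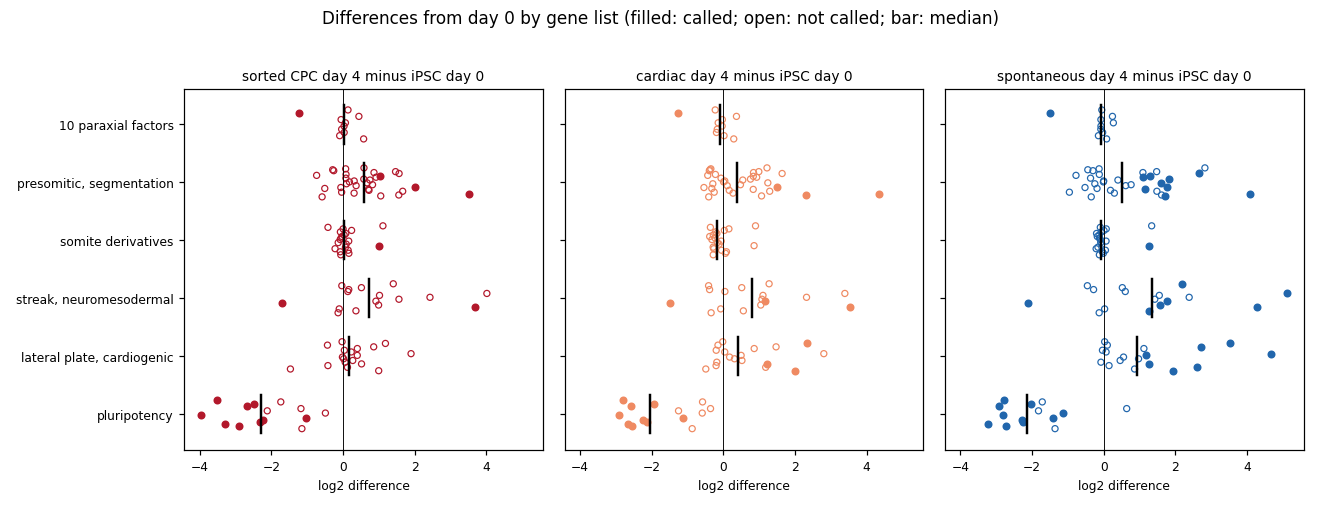
Log2 difference from day 0 of each gene, by list, in sorted CPCs, cardiac cultures and spontaneous cells; filled points were called, open points were not, and bars mark list medians. The medians of the 10 paraxial factors and of the somite derivatives lie between -0.18 and 0.03, with Tcf15 called below 0 in each panel and Mkx called above 0 in sorted CPCs and spontaneous cells, while the streak genes have medians of 0.72, 0.80 and 1.35.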

How the data were processed

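Total RNA of 12 samples was hybridised to 1-colour Affymetrix gene arrays. The deposited log2 signals were made by the authors with RMA, and the submitters' processing notes name Affymetrix Expression Console 1.3.1. The log base was read from the span of values (1.87 to 13.87), and no genome build of the probes was found in the labels. Of 35557 probe sets, 21789 carried 1 symbol in the platform annotation. For each symbol the probe set with the highest mean was kept, which left 19938 genes. A single limma fit (version 3.58.1, under R 4.3.3) took all 12 arrays, gave each group a mean and let the prior variance follow intensity. It yielded 6 two-sided contrasts and an F test. SDs are between arrays, and SEs and 95% intervals belong to the moderated contrasts. The number of arrays limits the precision. The fit was tested on simulated data in which each gene had the same spread in all groups. Measured median gene SDs were 0.20 (sorted CPCs), 0.18 (cardiac), 0.10 (spontaneous) and 0.12 (day 0). That test thus cannot show how unequal spread affects the p-values.

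The 10 gene lists, including that of the members, were chosen with earlier results of these data known. The text names all members, per list and comparison with day 0 up to 4 called genes of largest change, the 4 genes most like a member whose group means span at least 1, and Kdr, Pdgfra, Pou5f1 and Nanog as checks. The details of Dll3 and Tex14 were chosen after their values were seen. Some listed genes are not reported here. Alternatives were a replicate block, other prior variance, array weights, leaving out dim genes, averaged probe sets, 3 scalings, a fit of the compared groups alone, no minimum fold, and each array left out.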

Additional observations from a re-analysis of the deposited data

How the results depend on the processing

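The 60 member differences kept their call in 1465 of 1476 recomputed values over 25 alternatives, and 0 called differences changed sign. Only the Tcf15 differences from day 0 were called to begin with, so that share rests mostly on uncalled differences. All 6 lost calls were of Tcf15, in sorted CPCs and cardiac cultures. The count of members called in the spontaneous group against day 0 was 1 under every alternative run. With 1 array left out in turn, the count ranged from 0 to 1 in sorted CPCs and in cardiac cultures against day 0, and from 0 to 1 in the F test, lost without iPSC replicate 1, 2 or 3. Without sorted CPC replicates 2 and 3, a setting chosen after seeing the data, it was 3 in sorted CPCs against day 0 (Tbx6, Foxc1 and Tcf15) and 2 in the F test. With cardiac replicate 1 also left out it was 3 in sorted CPCs against day 0, 1 in sorted CPCs against spontaneous cells (Foxc1, 1.46, adjusted p = 0.0114) and 3 in the F test; in both settings a lone sorted array is assumed to vary like the other groups. Over all genes, the sorted, cardiac and spontaneous calls against day 0 numbered 420, 439 and 711, and 1019, 1231 and 1943 with no minimum fold; the lowest counts were 294 and 284 without iPSC replicate 1 and 430 without spontaneous replicate 2. Without the 3 libraries low in Kdr they were 1019 in sorted CPCs and 806 in cardiac cultures against day 0, and 115 and 110 for sorted CPCs against cardiac and spontaneous cells, against 0 and 1 with them. The filter on dim genes left out Meox1, Meox2, Foxc2 and Pax3. Deviations of same-numbered arrays from their group means correlated between -0.38 and 0.31, and over 0.1 in 6 of 18 pairs. These correlations cannot decide whether the numbers pair the samples, since labels may have been exchanged. With the replicate block, 1, 1 and 1 member was called against day 0 and 0 between day 4 groups. Other scalings moved the median of all genes by at most 0.08.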

Other observations

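Lists of neighbouring and possible contaminating tissues were read beside the factors, since Foxc1, Foxc2, Meox2 and Pax3 are also expressed outside paraxial mesoderm. Of 10 measured intermediate mesoderm genes, 2 rose in spontaneous cells, Gata3 (2.21, adjusted p = 0.0165) and Six2 (1.89, adjusted p = 0.0376), calls lost under 4 and 9 of 25 alternatives, and 0 in sorted CPCs or cardiac cultures. Of 11 measured neural crest genes, 3 rose in spontaneous cells: the homeobox genes Msx2 and Msx1 (2.88 and 2.70, adjusted p = 0.0124 and 0.0117) and Ets1 (1.22, adjusted p = 0.0112). None of these 3 is restricted to neural crest, and 0 of the list were called in sorted CPCs or cardiac cultures. In spontaneous cells both the intermediate mesoderm and the neural crest count fell to 0 without spontaneous replicate 2. Without cardiac replicate 1 and sorted CPC replicates 2 and 3, the intermediate mesoderm count was 1 in sorted and 1 in cardiac cells, and the neural crest count 1 and 2. Of 12 endothelial genes, Sox17 rose in spontaneous cells (1.04, adjusted p = 0.00461), a call lost under 5 of 25 alternatives by falling below a log2 change of 1. With 1 array left out in turn, the endothelial genes that rose in spontaneous cells numbered 0 (without iPSC replicate 1) to 3, and without cardiac replicate 1 and sorted CPC replicates 2 and 3 they numbered 3 there and 2 in cardiac cultures. Pecam1, which pluripotent cells also express, fell by 2.37, 1.98 and 2.57 in sorted CPCs, cardiac cultures and spontaneous cells (adjusted p = 0.00402, 0.0106 and 0.00193).

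Of 12 fibroblast and feeder genes, 0 rose, and 1, 2 and 2 fell in sorted CPCs, cardiac cultures and spontaneous cells. Dcn, a matrix proteoglycan gene of fibroblasts, fell by 2.17, 1.79 and 2.06 (adjusted p = 0.00143, 0.00391 and 0.00138). The mean signal of this list ran from 5.77 to 6.03 in sorted CPCs, from 5.78 to 5.92 in cardiac cultures and from 5.98 to 6.17 in spontaneous cells, against 6.26 to 6.78 at day 0. Its part in the day 0 signals of the paraxial factors was not tested.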
